A study of Mus musculus with 2 samples.

Results

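The TRIM (tripartite motif) genes described here are the protein-coding mouse genes whose symbol is Trim, a number and at most one further letter. The annotation holds 68 of them, and 67 of the 43346 genes measured are TRIM genes. Trim61, which overlaps Trim60 on the same strand, was not analysed here. The libraries come from G1E, an immortalized line of erythroid progenitors of the C57BL/6J strain that the labels describe as Gata1-, male, postnatal and of age 0 day. The line was made from embryonic stem cells with a targeted Gata1 gene, and it is used because its cells stay immature until GATA1 function is given back. There was 1 group of 2 biological replicates and no treatment, so the comparisons set genes against each other and replicate 1 against replicate 2. Both replicates carry the Gata1 lesion, and the labels name no cells with normal Gata1.

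Each library was made from 100 ng of total RNA depleted of ribosomal RNA, and the genes of replicate 1 received 58094631 expected counts and those of replicate 2 received 55274368. Levels are given in TPM, a transcript abundance in which estimated reads are divided by transcript length and scaled to a fixed total. Protein-coding genes of the nuclear genome held 18.0% of the TPM in replicate 1 and 17.0% in replicate 2, so these genes share a small part of the fixed total. Gata1 itself had 7.06 and 7.13 TPM, and gene-level counts do not show which part of the gene the reads cover. All 11 erythroid progenitor markers examined, Kit, Tfrc and Tal1 among them, reached 1 TPM in both libraries. So did 3 of 6 late erythroid, 3 of 5 mast cell, 2 of 4 megakaryocyte, 1 of 5 macrophage and granulocyte and 0 of 4 lymphoid markers. The summed mast cell markers had 192.0 and 171.7 TPM, led by Cpa3, and the part of any such cells or programme in the TRIM values was not tested. In bulk RNA, fewer cells of a type and less RNA per cell cannot be told apart.

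TRIM proteins share an amino-terminal arrangement of a RING finger, B-box zinc fingers and a coiled coil. The RING finger recruits a ubiquitin-charged E2 enzyme, the coiled coil pairs subunits, and the carboxy-terminal domain picks the substrate, so most family members act as E3 ubiquitin ligases whose targets differ by that last domain. A B30.2 (PRY-SPRY) domain is the most frequent of these and is found in several antiviral members. A plant homeodomain with a bromodomain marks the chromatin cofactors, and a COS box marks members that bind microtubules. In red cell formation the family is known for Trim10 and Trim58, which act in maturing erythroblasts, and for the corepressor Trim28.

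A gene counted as detected at 1 TPM or more in both libraries, which 23 of 67 TRIM genes did, a share of 34.3%. The background was 38.7% of the 21461 protein-coding genes outside the mitochondrial genome, so the share of TRIM genes lay near that background. The family's median level was 0.035 ± 0.0212 TPM, against 0.055 ± 0.0141 TPM for all protein-coding genes (SD of the library medians, n = 2). Among detected genes the medians were 5.45 ± 1.1 TPM for TRIM genes and 7.0 ± 0.523 TPM for all protein-coding genes. A further 7 TRIM genes averaged between 0.1 and 1 TPM and 37 averaged less. Trim12a, Trim30c, Trim43c, Trim54, Trim58 and Trim80 had no count in either library.

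**Figure D1:**
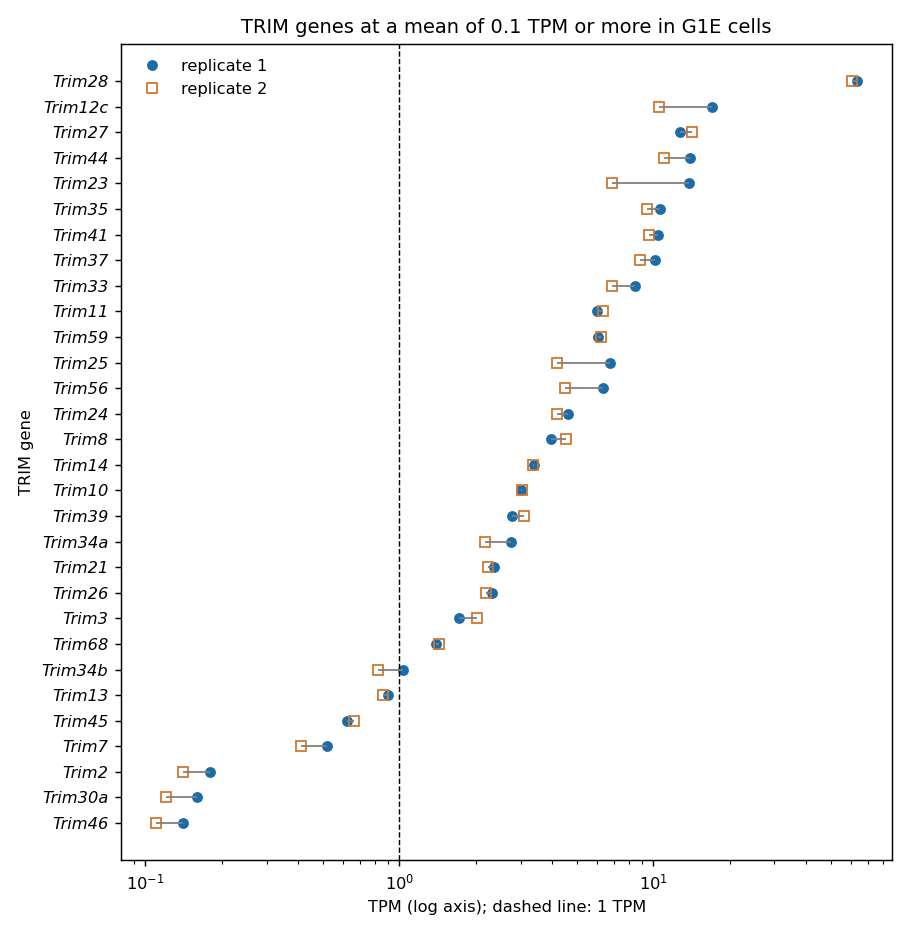
TPM (log axis) of each TRIM gene with a mean of at least 0.1 TPM, ordered by that mean, with filled circles for replicate 1, open squares for replicate 2 and a dashed line at 1 TPM. Trim28 stands apart at the top at 63.66 and 60.53 TPM, and the other 22 detected genes form a continuous slope down to Trim68 at 1.4 and 1.43 TPM.

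Of the chromatin cofactors with a plant homeodomain and a bromodomain, 3 of 4 were detected, with a group median of 6.04 ± 0.707 TPM. The group with a MATH, ARF or filamin domain had 2 of 3 detected and a median of 9.5 ± 2.31 TPM. With so few genes in each, no order of these groups is read. Trim28 (ENSMUSG00000005566, chr7:12999114-13031035, plus strand, GRCm38) is the corepressor that KRAB zinc finger proteins bring to DNA, where it recruits the histone methyltransferase Setdb1 and heterochromatin protein 1. It had 63.66 TPM (14579 counts) in replicate 1 and 60.53 TPM (15268 counts) in replicate 2, the highest level of the family in both libraries. This put it at rank 427 of the protein-coding genes, above 98.0% of them, and at 30.4% ± 1.83 of the TPM summed over the family (SD, n = 2).

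The related cofactors were far lower. Trim33, a transcriptional cofactor that is needed for blood formation in zebrafish, had 8.45 and 6.89 TPM. Trim24, a cofactor of nuclear receptors, had 4.63 and 4.19 TPM. Trim66, a related cofactor without a RING finger, had 0.09 and 0.03 TPM from 22 counts in each library. Differences between genes were set against 3 times the pooled SD between the libraries of genes at that level, on the log2(TPM + 1) scale. This limit was 0.483 for genes at 1 to 10 TPM, which genes under 1 TPM borrowed, and 0.687 at 10 to 100 TPM. On that scale Trim28 exceeded Trim24 by 3.52 in replicate 1 and 3.57 in replicate 2, and exceeded Trim33 by 2.77 and 2.96. Trim33 exceeded Trim24 by 0.75 and 0.60, also past the limit, and Trim24 exceeded Trim66 by 2.37 and 2.33. With replicate 2 alone the difference between Trim33 and Trim24, 0.60, missed the limit of 0.683 that applies to a lone library.

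The size of the Trim28 lead depended on which transcripts were counted. A retained-intron transcript of 565 nt took 52.3% of the Trim28 TPM in replicate 1 and 47.0% in replicate 2, while the full coding transcript of 3245 nt took 36.5% and 40.3%. The same coding transcript held 81.6% and 83.1% of the gene's expected counts, since TPM divides by length and weights short transcripts up. In transcripts of at least 1000 nt, Trim28 had 23.24 and 24.39 TPM and 17.0% ± 1.4 of the family total. Of the family's counts, without regard to length, it held 15.5% ± 1.63. In counts scaled to library size (CPM), without length, Trim28 exceeded Trim33 by 0.41 on the log2 scale with 1 added, under the limit of 0.536, so that difference rests on the division by length. Zbtb45 overlaps Trim28 on the opposite strand, so without the counting strand, which the sources do not state, reads of that gene may be among them.

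Partners through which Trim28 is known to act were all expressed. Of 10 heterochromatin partners listed, 10 were detected, against 38.7% of all protein-coding genes. The median over the list was 19.2 ± 1.99 TPM. Cbx3, a heterochromatin protein 1 that reads methylated histone H3, led at 108.71 and 89.4 TPM. Setdb1, which lays down that methyl mark, had 23.73 and 20.81 TPM. Atf7ip, the Setdb1 partner protein, was lowest at 5.06 and 3.22 TPM.

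The 2 members known for red cell maturation stood on opposite sides of detection. Trim10 (ENSMUSG00000073400, chr17:36869574-36877833, plus strand), a B30.2 protein known in the mouse for its role in terminal erythroid differentiation, had 3.01 TPM (1033 counts) in replicate 1 and 3.05 TPM (1068 counts) in replicate 2. It ranked 17th of the family, above 69.8% of protein-coding genes. Trim58 (ENSMUSG00000037124, chr11:58640465-58652404, plus strand), a ligase that acts on the motor protein dynein in erythroblasts that expel their nucleus, had 0 counts in both libraries. With no read seen, up to 3 counts remain possible, or 0.00898 TPM in replicate 1 and 0.00881 TPM in replicate 2, for counting error only. The authors' own interval for Trim58 ended at 0.00887 and 0.00869 TPM. Trim10 was at least 335-fold higher than that limit in replicate 1 and at least 346-fold higher in replicate 2. The late erythroid markers summed to 10.79 and 13.72 TPM, with Alas2 at 0.2 and 0.15 TPM and Slc4a1, the anion exchanger of the red cell membrane, at 0.22 and 0.25 TPM. Trim58 thus had no read where these late genes still had some.

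The promoters of Trim10 and Trim58 are printed because the labels give this line as lacking GATA1, a factor that binds GATA motifs. Each line gives the 250 bases before the RefSeq transcription start on GRCm38.p6, 5′ to 3′ on the gene's strand. Matches to GATAA, a form of the GATA motif, on either strand are in capitals. Other forms were not searched, such as the GATAG near the start of the Trim58 window.
Trim10, chr17:36869324-36869573, plus strand: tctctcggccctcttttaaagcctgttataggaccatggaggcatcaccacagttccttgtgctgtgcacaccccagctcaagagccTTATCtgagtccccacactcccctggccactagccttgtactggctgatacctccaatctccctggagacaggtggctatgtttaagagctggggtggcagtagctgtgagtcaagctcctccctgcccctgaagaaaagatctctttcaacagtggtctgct
Trim58, chr11:58640215-58640464, plus strand: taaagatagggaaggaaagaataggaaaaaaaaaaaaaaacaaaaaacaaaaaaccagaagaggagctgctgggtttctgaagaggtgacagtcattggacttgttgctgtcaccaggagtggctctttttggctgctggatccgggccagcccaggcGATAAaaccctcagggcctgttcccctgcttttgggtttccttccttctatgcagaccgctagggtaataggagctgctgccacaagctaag

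Positions count the base before the start as -1. Both promoters held 1 GATAA match, at position -163 of Trim10 on the opposite strand and at -92 of Trim58 on its own strand. Such matches are common: 22.6% of the 32851 RefSeq windows of this length held at least 1. Windows were at hand for 52 TRIM genes, 17 of them detected. A match occurred in 3 of the 17 detected genes (Trim10, Trim12c and Trim27) and in 7 of the 35 others. Here a gene counted if any of its windows held a match, so these counts are not directly comparable to the share of single windows. A match is a run of letters and does not show a bound site.

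Promoters of detected TRIM genes held more CpG dinucleotides, in a comparison of medians with no test. The median ratio of observed to expected CpG was 0.73 in the 17 detected genes, 0.232 in the 35 others and 0.378 over all 27025 genes with a window. No ratio was taken over detected genes outside the family, so nothing particular to TRIM genes is read from this. Trim10 at 0.06 and Trim58 at 0.22 both lay in the CpG-poor range, so on this measure the detected Trim10 resembled the undetected genes.

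The chromosome 7 cluster of Trim5 relatives, several of which act against viruses, was nearly silent apart from Trim12c and the Trim34 pair. It holds 10 TRIM genes within 289.1 kb (chr7:104218793-104507849), of which 2 were detected. Trim12c (ENSMUSG00000057143), a mouse relative of the primate retrovirus restriction factor TRIM5, had 17.06 and 10.49 TPM and ranked second in the family by mean TPM. In transcripts of at least 1000 nt by deposited length it had 7.65 and 6.43 TPM. Its relative Trim12a in the same cluster had 0 counts in both libraries. On the log2(TPM + 1) scale Trim12c exceeded Trim12a by 4.18 in replicate 1 and 3.52 in replicate 2, past the limit of 0.687. The longest coding transcripts of these genes, of 3740 nt in Trim12c and 1531 nt in Trim12a, align over 967 nt at 96.0% identity, so reads from that stretch may be hard to assign. The authors' posterior SD of the Trim12c count was 1.01 and 1.53 counts, small beside its 5500.86 and 4309.78 expected counts. Trim5, 96.4% identical to Trim12c over 3640 nt, had 13.47 and 13.78 counts.

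Trim34a had 2.75 and 2.17 TPM. Trim34b, 98.7% identical to it over 1827 nt, had 1.03 and 0.82 TPM and so passed 1 TPM in replicate 1 only. Trim34a exceeded Trim34b by 0.89 and 0.80 on the log2(TPM + 1) scale, past the limit of 0.483. Transcripts that GENCODE release M21 no longer holds took 84.4% and 85.3% of the Trim34a TPM. Each Trim34a transcript kept in M21 had 0.23 TPM or less. Both the detection of Trim34a and its lead over Trim34b thus rest on the transcripts absent from M21. Trim30a, a mouse regulator of Toll-like receptor signalling, had 0.16 and 0.12 TPM, and Trim30d had 0.02 and 0 TPM. That pair stayed under the limit at a difference of 0.18 ± 0.02, but with a pseudocount of 0.1 in place of 1 the difference was 1.13 and passed its limit of 0.611. The remaining genes of the cluster, Trim6, Trim5, Trim30b and Trim30c, were each at 0.06 TPM or below.

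The promoters of Trim12c and Trim12a are printed because these relatives, alike over part of their transcripts, had such unequal levels. They are given as above, with matches to GATAA and to the core of the interferon-stimulated response element, a pair of GAAA runs separated by 2 bases, in capitals.
Trim12c, chr7:104353350-104353599, minus strand: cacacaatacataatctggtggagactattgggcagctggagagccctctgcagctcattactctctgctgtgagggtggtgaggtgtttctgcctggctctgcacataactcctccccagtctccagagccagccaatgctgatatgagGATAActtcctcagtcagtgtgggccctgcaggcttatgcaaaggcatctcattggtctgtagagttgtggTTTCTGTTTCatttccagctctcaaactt
Trim12a, chr7:104315496-104315745, minus strand: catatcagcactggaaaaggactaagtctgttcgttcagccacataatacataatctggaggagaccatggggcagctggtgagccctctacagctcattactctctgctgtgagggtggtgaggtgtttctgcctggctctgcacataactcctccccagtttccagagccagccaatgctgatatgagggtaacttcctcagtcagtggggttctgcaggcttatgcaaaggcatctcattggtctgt

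The windows align over 210 bases at 95.2% identity. Trim12c held a GATAA match at position -100 and a GAAA pair, on the opposite strand, at position -29. Trim12a held neither in these 250 bases, but it held 1 GAAA pair just past its own annotated start, which RefSeq places further upstream in the shared stretch. A GAAA pair with this spacing occurred in 2.98% of the 32851 windows. Counting a gene with a match in any of its windows, it occurred in 2 of the 17 detected TRIM genes (Trim12c and Trim26) and in 3 of the 35 others.

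**Figure D2:**
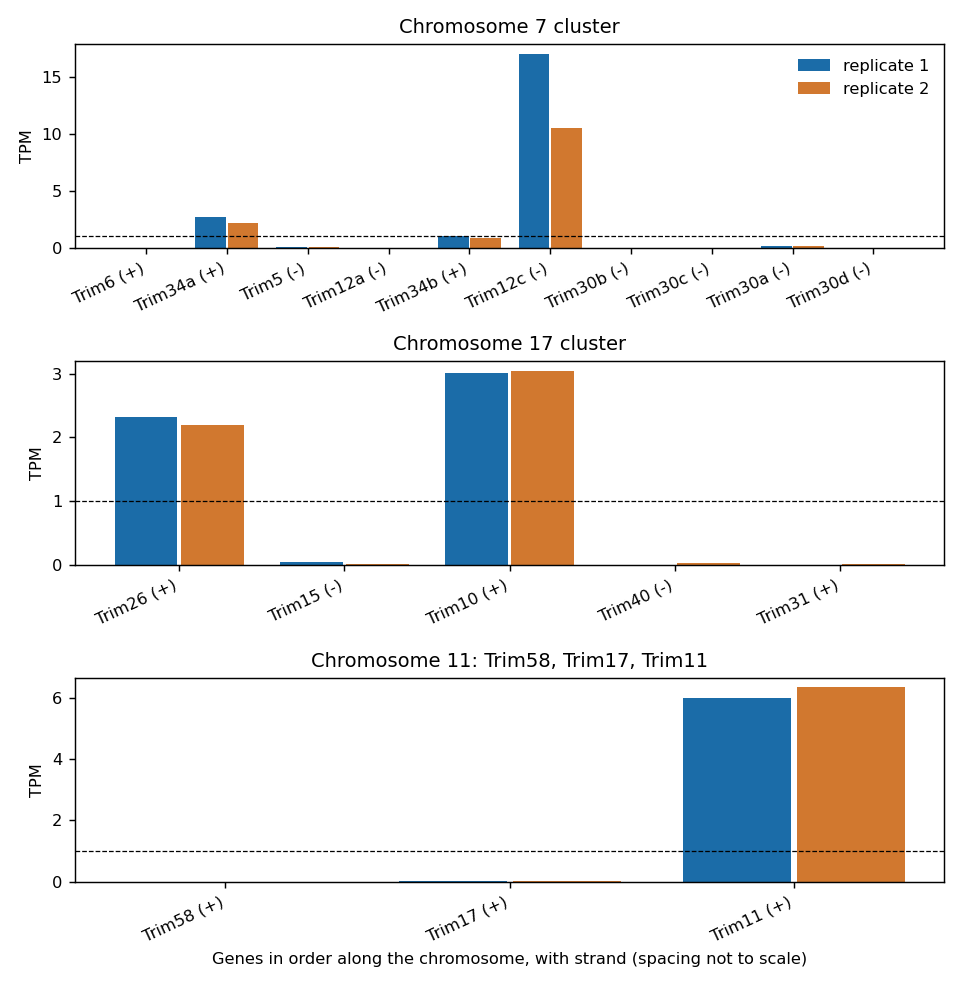
TPM of TRIM genes in their order along 3 chromosome segments, with blue bars for replicate 1, orange bars for replicate 2, the strand beside each name and a dashed line at 1 TPM. In each segment 1 or 2 genes carry nearly all the signal: Trim12c and Trim34a on chromosome 7, Trim26 and Trim10 on chromosome 17, and Trim11 on chromosome 11, where Trim58 has none.

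Of the 7 other clusters, 3 held both detected and undetected genes, 1 held detected genes only and 3 held none. On chromosome 17, beside the major histocompatibility region, 5 TRIM genes lie within 73.1 kb (chr17:36837134-36910214). Trim26, a regulator of interferon signalling, had 2.32 and 2.19 TPM there and Trim10 had the 3.01 and 3.05 TPM given above. Transcripts not annotated as coding took 61.5% and 75.3% of the Trim26 TPM. The coding transcripts of Trim26 together stayed under 1 TPM in both libraries. Between Trim26 and Trim10, Trim15, a focal adhesion protein, had 0.04 and 0.01 TPM. The difference of Trim10 over Trim15, 1.95 and 2.00 on the log2(TPM + 1) scale, passed the limit of 0.483. Trim40 and Trim31 beyond Trim10 were at 0.02 TPM or below. On chromosome 11 Trim11, a ligase linked to protein quality control, had 5.99 and 6.33 TPM. Its neighbour Trim17, known in neurons, had 0.02 TPM in each library, and Trim58 on the same segment had none. Trim41 had 10.41 and 9.62 TPM, and its neighbour Trim7, a ligase linked to glycogenin, had 0.52 and 0.41 TPM. Trim21 and Trim68 on chromosome 7 were both detected. The pair Trim75 and Trim60 on chromosome 8 and the Trim43 genes on chromosome 9 were at 0.04 TPM or below. Over the 8 clusters, taken as TRIM genes less than 400 kb apart, 8 of 29 genes were detected, and outside clusters 15 of 38 were. The share over all protein-coding genes was 38.7%, and no difference was tested.

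Of all 38 genes of the B30.2 group, 13 were detected, with a group median of 0.03 ± 0.0177 TPM. Trim27 (ENSMUSG00000021326, chr13:21179445-21194724, plus strand), a ligase also known as the Ret finger protein, had 12.73 and 14.17 TPM. Trim35, described in the mouse as a haematopoietic ligase, had 10.66 and 9.44 TPM. Trim39, a ligase linked to cell cycle control, had 2.77 and 3.09 TPM, and Trim27 exceeded it by 1.87 and 1.89 on the log2(TPM + 1) scale. Trim27 and Trim35 thus had more TPM than the erythroid Trim10 in both libraries, while Trim39 and Trim10, neighbours in the order of levels, differed by less than the limit.

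Trim25, which ubiquitinates the RNA sensor RIG-I, had 6.74 and 4.16 TPM. Trim65 and Trim47, overlapping B30.2 genes on the same chromosome, were at 0.05 TPM or below in both libraries. Trim25 exceeded Trim65 by 2.94 and 2.34 and Trim47 by 2.88 and 2.34 on the log2(TPM + 1) scale, past the limit of 0.483. Trim21, the cytosolic antibody receptor, had 2.36 and 2.23 TPM, and Trim68 had 1.4 and 1.43 TPM. Their difference, 0.45 ± 0.05, lay just under the limit of 0.483 and passed with a pseudocount of 0.1. Trim14, an adaptor of the sensor pathway that lacks a RING finger, had 3.38 and 3.37 TPM.

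Of 17 genes listed for interferon response and RNA sensing, 11 were detected, against 38.7% of all protein-coding genes. The median over the list was 2.15 ± 0.233 TPM. Irf3, the factor that turns on interferon genes, led at 16.41 and 19.87 TPM. Ddx58, which encodes RIG-I, had 2.98 and 2.45 TPM. The 6 not detected were Isg15, Oas1a, Ifit3, Mx1, Ifit1 and Rsad2, each at 0.17 TPM or below in both libraries.

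The remaining domain groups were unequal. Trim44 (ENSMUSG00000027189, chr2:102300119-102407828, minus strand), which has a ubiquitin-protease zinc finger in place of the RING, had 13.96 and 10.98 TPM. Trim16, a B30.2 member that also lacks a RING, had 0.01 and 0 TPM. Trim56, a partner of the DNA-sensing adaptor STING, had 6.31 and 4.48 TPM, and Trim8, a nuclear ligase of cytokine signalling, had 3.95 and 4.53 TPM. The order of Trim8 and Trim56 differed between the libraries, at -0.56 in replicate 1 and 0.01 in replicate 2. Of the 8 genes with no further named domain, these 3 (Trim44, Trim56 and Trim8) were detected.

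Trim23 (ENSMUSG00000021712, chr13:104178797-104203372, plus strand), which ends in an ARF GTPase domain, had 13.79 and 6.89 TPM. Trim37, which ends in a MATH domain and acts at peroxisomes and centrosomes, had 10.15 and 8.86 TPM. Trim23 was thus above Trim37 in replicate 1 and below it in replicate 2. In transcripts of at least 1000 nt the order was the same in both libraries and Trim37 exceeded Trim23 by 0.80 on the log2(TPM + 1) scale, past the limit of 0.386. Trim45, the filamin-domain member of the group, had 0.62 and 0.66 TPM. Of the membrane-anchored ligases, Trim59 had 6.08 and 6.21 TPM and Trim13, an endoplasmic reticulum protein, had 0.9 and 0.86 TPM, a difference of 1.90 and 1.96 past the limit of 0.483.

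Few members of the NHL and COS box groups, several of them best known from brain and muscle, were detected. Of 4 members with NHL repeats only Trim3 was detected, at 1.72 and 2.03 TPM. Trim2, its close relative in neurons, had 0.18 and 0.14 TPM, lower than Trim3 by more than the limit at -1.21 and -1.41 on the log2(TPM + 1) scale. Trim32, mutated in a human limb-girdle muscular dystrophy, and Trim71, a stem cell regulator first known as lin-41 in the worm, were at 0.02 TPM or below. None of the 8 members with a COS box was detected. Their highest was Trim46, a neuronal protein of the axon, at 0.14 and 0.11 TPM, and the muscle ring finger genes Trim54, Trim55 and Trim63 were at 0.04 TPM or below.

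Set in order of mean TPM, detected TRIM genes formed a ladder in which only the first step passed its limit. Of the 22 neighbouring pairs in the order, this was Trim28 over Trim12c, by 1.84 in replicate 1 and 2.42 in replicate 2. Sorting by the same values sets the closest genes side by side, so small steps lower down are largely built in. In CPM Trim28 also lay above Trim12c, at 251.0 and 276.0 against 94.7 and 78.0. Trim33, at 212.0 and 184.0 CPM, was closer to Trim28 there. Trim28 exceeded Trim33 by 0.41 in CPM, under the limit of 0.536, so a clear lead over all other TRIM genes belongs to the TPM scale. Across the 23 gene pairs compared by position or relationship, 16 passed, 15 of them with the first gene higher. The 7 that did not were Trim32 and Trim71, Trim37 and Trim23, Trim39 and Trim26, Trim30a and Trim30d, Trim21 and Trim68, Trim8 and Trim56, and Trim55 and Trim63. Trim32 and Trim71, Trim30a and Trim30d, and Trim55 and Trim63 could not have passed. All were at 0.16 TPM or below, where adding 1 keeps any difference under the limit, so nothing is read from these pairs. Genes just above the detection threshold were Trim68 and Trim3, and those just below were Trim34b and Trim13.

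Short transcripts carried a large share of several of these levels. In 7 of 23 detected TRIM genes more than 25% of the TPM lay in transcripts under 1000 nt in both libraries, against 23.1% of detected protein-coding genes. In Trim41 a 429-nt coding transcript took 67.7% and 63.2% of the TPM with 12.9% and 11.6% of the counts. Rack1 overlaps Trim41 on the opposite strand, and its part in that value was not tested. In Trim23 a 331-nt transcript took 62.7% of the TPM in replicate 1 and 29.8% in replicate 2, from 180.72 and 50.12 counts. GENCODE release M21 no longer holds that transcript. In Trim12c a transcript of 808 nt by deposited length took 55.2% and 38.8%, and M21 lists it at 2484 nt. How these levels would change under M21 was not tested.

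Gene levels shifted with those shares. In transcripts of at least 1000 nt Trim23 had 5.15 and 4.83 TPM, Trim12c had 7.65 and 6.43 TPM and Trim41 had 3.19 and 3.38 TPM, so the libraries lay closer together for Trim23 and Trim12c than at the gene level. By that measure the highest after Trim28 were Trim44 at 13.6 and 10.7 TPM and Trim27 at 11.62 and 11.97 TPM. All 23 detected genes still reached 1 TPM in both libraries by that measure. They were 34.3% of the 67 TRIM genes, against a background of 35.0% (7502 of all 21461 protein-coding genes).

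**Figure D3:**
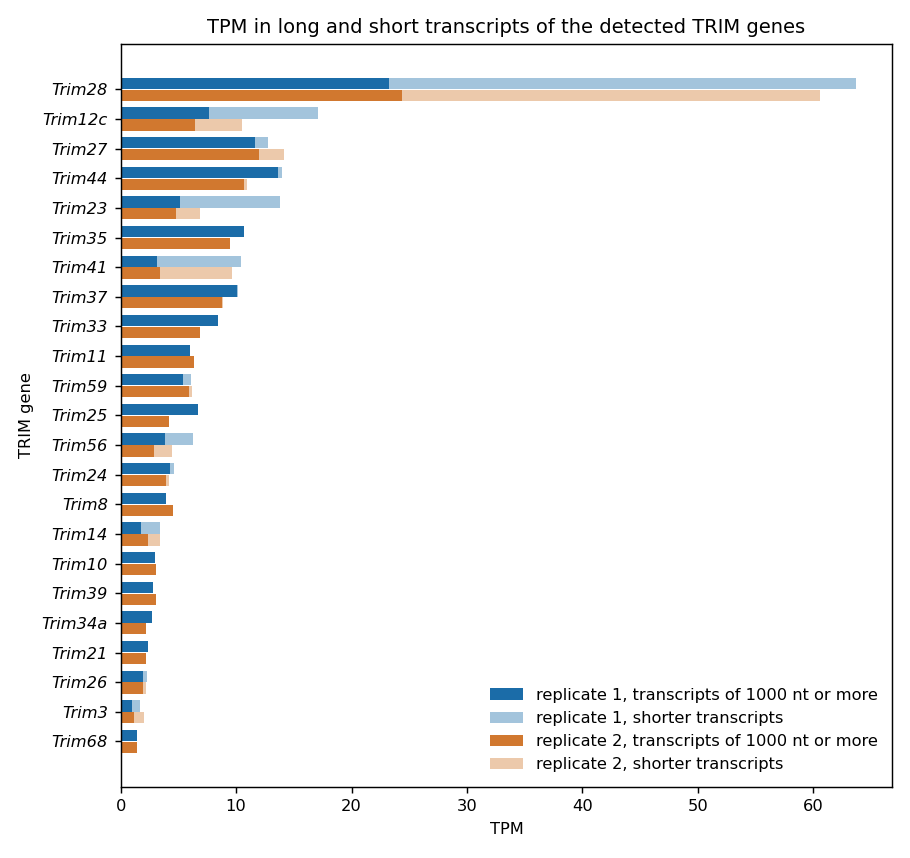
TPM of each detected TRIM gene, split into transcripts of 1000 nt or more (solid) and shorter ones (pale), with replicate 1 in blue above replicate 2 in orange. By deposited length, short transcripts make up most of Trim28 and Trim41 in both libraries and of Trim23 and Trim12c in replicate 1. They make up none of Trim35, Trim33 or Trim10.

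The leading transcript was the same in both libraries for 17 of the 20 detected TRIM genes with more than 1 annotated transcript, where 88.2% of detected genes kept theirs. The exceptions were Trim12c, Trim14 and Trim23. By deposited length, each was led by a transcript under 1000 nt in replicate 1 and a coding one over 1000 nt in replicate 2. Of those short transcripts, M21 lists that of Trim12c at 2484 nt and no longer holds that of Trim23. Trim25 kept its leading transcript, but its share was 89.4% of the TPM in replicate 1 and 59.2% in replicate 2.

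Between the libraries the detected TRIM genes differed little in size. A two-sided exact binomial test of rounded counts, with Benjamini-Hochberg adjustment over all 18409 genes tested, compared the 2 libraries and knows counting error only. Of 49 TRIM genes tested, 3 had an adjusted p under 0.05 and at least a 2-fold difference, a share of 6.12%, against 13.9% of all genes tested. Among protein-coding genes the share was 10.3% of the 14079 tested. All 3 TRIM genes were higher in replicate 1, the more common direction. It held for 1809 of the 2565 genes called (9.83% of all genes tested) and for 1115 of the 1449 protein-coding genes called. Trim9, a neuronal ligase, had 40 and 11 counts (adjusted p = 0.000983), Trim71 had 28 and 1 counts (adjusted p = 2.71e-06) and Trim67, a neuronal relative of Trim9, had 13 and 2 counts (adjusted p = 0.03). None of them reached 0.1 TPM in either library.

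With no minimum on the fold, 17 of 23 detected TRIM genes (73.9%) had an adjusted p under 0.05, against 65.5% of detected protein-coding genes. Their log2 ratios of scaled counts, replicate 1 over replicate 2, ran from -0.40 in Trim14 to 0.48 in Trim25. By TPM 15 of the 23 were higher in replicate 1, and by scaled counts 8 were, so that the direction of 7 genes differed between the scales. Trim28, with more TPM in replicate 1, was among them with a log2 ratio of scaled counts of -0.23. No direction between the libraries is read from such genes.

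**Figure D4:**
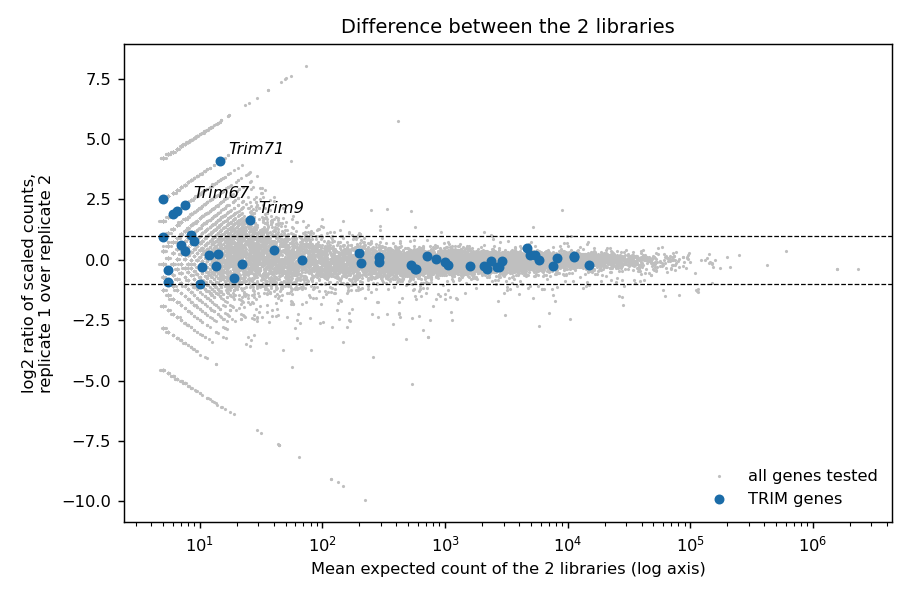
log2 ratio of scaled counts, replicate 1 over replicate 2, against the mean expected count of the libraries (log axis), with TRIM genes in blue over all genes tested in grey and dashed lines at 2-fold either way. TRIM genes above 100 counts lie within -0.40 and 0.48, and Trim9, Trim71 and Trim67, the 3 past the test, have few counts.

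The listed E2 enzymes that work with TRIM ligases, and E2 cofactors, were largely present. Of 12 listed, the cofactors Ube2v1 and Ube2v2 among them, 10 were detected, against 38.7% of all protein-coding genes. The median over the list was 10.1 ± 1.13 TPM. Ube2d3, a general-purpose E2, led at 85.45 and 77.8 TPM. Ube2n, which builds lysine-63 chains, had 10.88 and 9.32 TPM, and its cofactor Ube2v1 had 15.55 and 14.12 TPM. Ube2w, which marks the amino terminus of its substrates, had 19.73 and 19.12 TPM. Ube2d1 and Ube2e2 were at 0.03 TPM or below in both libraries.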

How the data were processed

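Gene and transcript tables were deposited by the authors, 1 library per table. Per the file headers, the deposited expected counts are estimated reads, so they need not be whole, and deposited TPM and FPKM values divide these by an effective length. The bounds of the deposited TPM interval are a signal on the TPM scale, and the deposited transcript percent is each transcript's share of its gene's abundance. The labels and read-me texts name mm10 and GENCODE release M4. No source names the aligner, the quantifier, the counting strand or the level of the deposited TPM interval. Symbols and coordinates came from GENCODE release M21 on the same assembly, matched by Ensembl gene identifier for 42462 of 43346 genes. Rows naming no gene (26345) held 20 and 37.61 counts, 3.44e-05% and 6.8e-05%, and were left out.

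TRIM genes, lists, pairs and motifs were chosen with earlier results of these data known, and the motifs with the sequences in view. Named genes are every TRIM gene at 1 TPM in either library, the genes next above and below that threshold, every gene of a pair and every gene called between libraries. Other TRIM genes named in ranges or groups, such as Trim45 and Trim46, were chosen after their values were seen. Domain groups follow textbook knowledge. The library test used TMM sizes from edgeR 4.0.16 (DESeq2 1.42.0 as the alternative, R 4.3.3), counts rounded to whole numbers, and a minimum of 10 counts summed over the libraries. It was tested on simulated data. An exact sign test on 2 libraries cannot go below p = 0.5, so the p-values describe counting only. Replicates are labelled biological. Reads were taken as shared with another gene where the deposited posterior SD of a count passed 0.05 of its mean, which held for 6 TRIM genes, none detected. Alignments used Biopython 1.88, and Python 3.11.15 with pandas 2.3.3, scipy 1.17.1 and matplotlib 3.10.9 did the rest. Promoter windows came from RefSeq.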

Additional observations from a re-analysis of the deposited data

How the results depend on the processing

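The count of 23 detected TRIM genes held within 1.5 times under 7 of 8 alternatives and was 11 at a threshold of 5 TPM. The family median was 0.197 TPM when TPM was rescaled to protein-coding genes, 0.065 with posterior means, 0.246 in CPM and 5.45 among detected genes. Trim28's share of the family was 15.5% in CPM and 17.0% in transcripts of at least 1000 nt, a measure added after seeing the data. The median over the 43 named genes, 1.88 TPM, was 10.7 rescaled and 1.42 in those longer transcripts. With at least 50 counts the library test called 1 TRIM gene, Trim9, of 30 tested. At 5 TPM or more, 9 of 11 genes kept their leading transcript. Without replicate 1 there were 23 detected genes, a median of 0.020 TPM, a Trim28 share of 31.7%, 15 passing pairs and a named-gene median of 2.03 TPM. Without replicate 2 these were 24 genes, 0.050 TPM, 29.1%, 16 pairs and 1.72 TPM. Trim37 over Trim23 had the other sign, at 1.47 in CPM and 0.80 in transcripts of at least 1000 nt, as counts do not divide by length and the longer transcripts leave out the short Trim23 transcript. The cause of other shifts was not tested. No paired analysis was possible because there is 1 group. Depth limits genes under 50 counts, where a few reads set the ratio.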

Other observations

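TRIM proteins that go by other names were mostly as low as the undetected Trim genes. Pml, the TRIM protein that builds nuclear bodies, had 4.13 and 3.31 TPM and was the only 1 of 4 detected. Mid1 and Mid2, microtubule-bound ligases, and Mefv, the inflammasome protein pyrin, were each at 0.03 TPM or below in both libraries. Of genes whose names begin with Trim but fall outside the naming rule, Triml1 had 6 and 0 counts and Triml2 had 3 and 1 counts.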
